A study of Mus musculus with 12 samples.

Results

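The cytosolic ribosomal protein genes were followed through RNA-seq of sorted mouse heart cells. Protein-coding genes were taken whose symbol is Rpl or Rps followed by a digit, together with *Rplp0*, *Rplp1*, *Rplp2* and *Rpsa*, and pseudogenes and the *Rps6k* kinases were left out. The rule found 86 of the 48526 genes in the count files, of which 21760 are protein-coding. They divide into 43 genes of the large subunit, 31 of the small subunit including *Rpsa*, 3 of the stalk, and 8 paralogs or retrogene copies. The last member, *Rps19bp1*, carries a ribosomal name but encodes a binding partner of a small subunit protein.

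The ribosome is built of a large and a small subunit, each an RNA scaffold dressed with many different small basic proteins, most of them present once per particle. The proteins are made in matched amounts, and their mRNAs are short, abundant in nearly every cell and begin with a run of pyrimidines through which mTOR signaling controls their translation. In the heart, the making of ribosomes is best known from hypertrophic growth, and striated muscle also has its own version of a large subunit protein, RPL3L, beside the common RPL3.

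Adult male *Ncam-1* WT and *Ncam-1* KO mice were compared, and all of them carried the *Cntn2*-EGFP reporter, a BAC transgene that labels cells of the conduction system. *Ncam-1* encodes the neural cell adhesion molecule, and the KO allele is a constitutive null, so each cell of a KO heart lacks it. Ventricular cells that took up the mitochondrial dye TMRM were sorted into Purkinje cells (PCs), which were positive for EGFP, and ventricular myocytes (VMs), which were negative. Each combination of genotype and cell type had 3 libraries. The reporter was kept on a CD1 background and the null allele on C57BL/6, and the labels give no strain for single libraries. They do not say whether the libraries of a group came from separate hearts, so p-values measure the spread between libraries only. Nor do they say whether PCs and VMs were sorted from the same hearts. Apart from those with the replicate number as a block, the fits treated all libraries as independent.

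The libraries held between 1532393 and 6761356 counts outside the mitochondrial genome. Raw counts of *Ncam1* were 83, 34 and 116 in PCs of WT hearts, 0, 1 and 1 in KO PCs, 6, 0 and 9 in WT VMs and 0 in every KO VM library, which matches the labels. The summed normalized count of 5 Purkinje markers lay between 206 and 2011 in the 6 PC libraries and between 40.5 and 70.8 in the 6 VM libraries. WT PC replicate 2 stood apart: 63.9% of its read pairs were not aligned and 11847 genes had a count. The calls of the members and the medians of their log2 fold changes that include it are also given without it. The medians of level by subunit and the paralog ratios are given over all 12 libraries only.

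Of the 86 members, 83 passed the filter on low counts (a mean normalized count above 5 in the libraries compared) in each comparison. The exceptions were *Rpl10l*, the testis paralog of *Rpl10*, with 0 counts in all 12 libraries, the paralog *Rpl39l* with at most 3.11 normalized counts, and *Rpl24* with at most 8.84. Exons of another gene on the same strand cover 47.0% of the exon bases of *Rpl24*, and the part of this overlap in its low counts was not tested. All values below are normalized counts, that is counts divided by the TMM-scaled library size and brought to the mean of the 12 libraries, unless a raw count is named.

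Promoter entries from RefSeq on GRCm38.p6 were at hand for 66 of the 86 members. The stretches from 60 bases before to 15 bases after the annotated start are shown for 6 members on which the comparisons by genotype and cell type turn. Capitals mark CGGAAG, or its reverse complement CTTCCG, the core of the sites that ETS family factors bind. They also mark CTTTCC, a short pyrimidine stretch, on the sense strand, which is the strand shown.
Rplp0 (chr5:115559407-115559481, + strand): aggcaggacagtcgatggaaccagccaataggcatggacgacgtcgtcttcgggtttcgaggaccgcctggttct
Rpl38 (chr11:114668520-114668594, + strand): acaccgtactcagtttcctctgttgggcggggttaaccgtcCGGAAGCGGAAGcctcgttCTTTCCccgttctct
Rps4x (chrX:102189377-102189451, - strand): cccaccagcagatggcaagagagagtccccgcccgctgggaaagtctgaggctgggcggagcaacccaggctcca
Rpl41 (chr10:128549154-128549228, - strand): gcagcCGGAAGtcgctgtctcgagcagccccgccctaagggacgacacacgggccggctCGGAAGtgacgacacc
Rpl37a (chr1:72711200-72711274, + strand): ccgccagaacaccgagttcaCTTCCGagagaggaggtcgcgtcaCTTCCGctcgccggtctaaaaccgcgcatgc
Rps16 (chr7:28350629-28350703, + strand): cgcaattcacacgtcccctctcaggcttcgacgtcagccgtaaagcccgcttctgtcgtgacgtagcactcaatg

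Over the whole 300 bases of an entry, searched on both strands, CGGAAG was present in 44 of the 66 members (66.7%) and in 18.8% of all 27025 genes with an entry. The pyrimidine stretch CTTTCC was searched on the sense strand between 50 bases before and 50 after the start. It was present in 21 of the 66 members (31.8%) and in 5.43% of all genes. A TATAAA box, searched on both strands over the entry, was found in 7 members (10.6%) and in 15.7% of all genes. On the sense strand between 50 bases before and 50 after the start the order was reversed. There it was found in 5 members (7.58%) and in 4.05% of all genes. These are 3 of 17 strings that were searched, chosen after their shares were seen, and a match is a description of the letters only. In the stretches shown, *Rpl38* holds CGGAAG 2 times in direct succession and *Rpl41* and *Rpl37a* hold 2 matches each, whereas those of *Rplp0*, *Rps4x* and *Rps16* hold none.

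The members took 0.978% ± 0.0730 (SD, n = 3) of the counts outside the mitochondrial genome in WT VMs and 0.979% ± 0.135 in KO VMs. In PCs the share was 1.48% ± 0.684 in WT and 1.07% ± 0.200 in KO. The single WT PC libraries held 0.945%, 2.25% and 1.24%, so that the mean and the spread of this group came from replicate 2. The KO PC libraries, at 1.29%, 1.02% and 0.898%, overlapped with both VM groups.

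A gene's levels were then centred, as log2(normalized count + 2), on its own mean over the 12 libraries. The median of the 83 members was 2.11-fold the mean in WT PC replicate 2 and lay between 0.794-fold and 1.16-fold in the other 11 libraries. In WT PC replicate 2, 71 of the 83 members had their highest value of all 12 libraries. Libraries of the groups that do not hold it also differed, by less: KO PC replicate 1 was the highest of its group for 63 members and KO VM replicate 1 for 60, while KO PC replicate 3 and KO VM replicate 2 were the lowest of their group for 60 and 64.

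**Figure D1:**
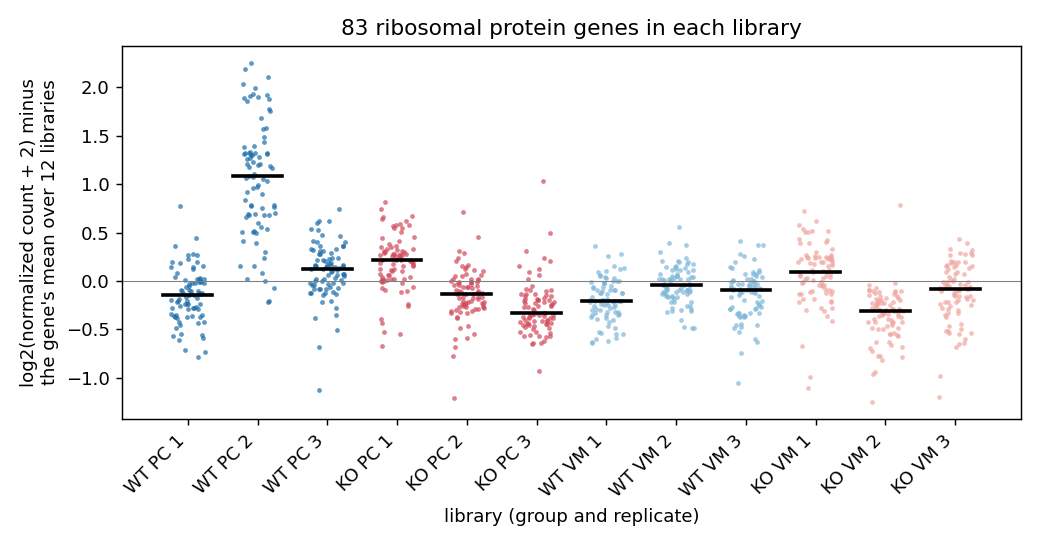
Each point is 1 of 83 ribosomal protein genes; the x axis gives the library and the y axis log2(normalized count + 2) minus that gene's mean over the 12 libraries, and black bars are medians. WT PC replicate 2 has a median of 1.08 on this scale, and the other 11 libraries lie between -0.33 and 0.21.

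The order of the members by level was nearly the same in every library. Across the 83 genes, Spearman's rho between the normalized counts of 2 libraries was 0.924 to 0.976 over the 55 pairs without WT PC replicate 2 and 0.832 to 0.873 over the 11 pairs with it. The points share the lengths of the genes, and the part of length in this likeness was not tested. Within the 11 libraries the coefficient of variation of a member was 20.1% at the median and ran from 6.87% to 61.3%.

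Levels between genes were compared per kb of coding length. The highest member was *Rpl41*, which encodes the smallest ribosomal protein, with 11590 normalized counts per kb on average and a range of 6720 to 37290 over the 12 libraries. It was followed by *Rps27* with 3538, the stalk gene *Rplp1* with 3259, *Rps24* with 3024 and *Rps21* with 2704. Without WT PC replicate 2 the first 4 kept their order, with *Rpl41* at 9250 and *Rps27* at 3199, but *Rps29* with 2189 then stood before *Rps21* with 2139, an order chosen for mention after the data were seen. The ranges of *Rps27*, *Rplp1*, *Rps24* and *Rps21* over the libraries overlapped, and that of *Rpl41* overlapped with them only through WT PC replicate 2 at their upper ends. Its coding length is 75 bases in a transcript of 437, so that its level per kb of coding length has a small divisor.

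The median member had 763 normalized counts per kb, and 53 of the 83 members lay within 2-fold of it. Small subunit genes had a median of 1040 and large subunit genes of 730.0. The lowest were *Rpl13a* with 23.8, *Rpl23a* with 53.3, *Rps19bp1* with 57.3, the paralog *Rpl7l1* with 74.5, and *Rpl3* with 87.5. The same 5 genes were the lowest without WT PC replicate 2, where the median member had 689. The rules of counting apply to these values. Reads that match more than 1 place were not counted, and 8.82% to 18.9% of read pairs per library fell in that class. Of the members, 58 have pseudogenes named after them, 272 in all and 14 of them for *Rpl23a*, and the exons of the largest overlapping gene cover 59.7% of the exon bases of *Rpl23a* and 29.4% of those of *Rpl13a*. High numbers of pseudogenes were not particular to low members. *Rps12* with 23, *Rpl31* with 21 and *Rpl21* with 14 had 564, 1217 and 786 normalized counts per kb. *Rpl13a* and *Rpl3* have only 1 and 2 pseudogenes. For exon overlap, the largest overlapping gene covers 66.2% of *Rpl35*, which had 192.5 normalized counts per kb, and 25.3% of *Rpl31*. The strand setting of the counting is not given in the sources used here, so reads of genes on opposite strands cannot be told apart. How much of the low levels follows from this was not tested.

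**Figure D2:**
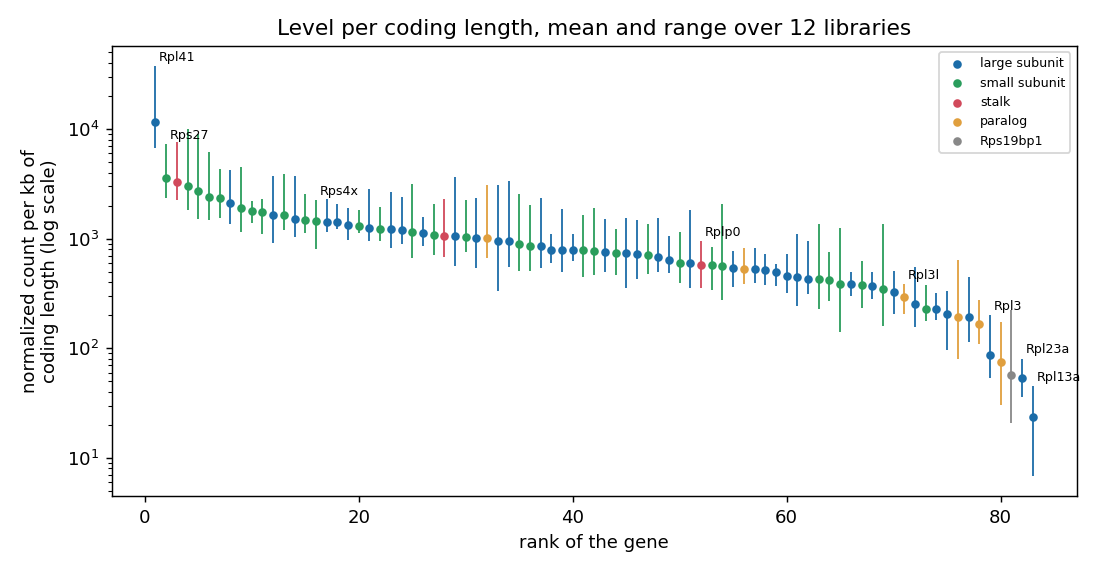
The 83 tested members are ordered on the x axis by their mean level, in normalized counts per kb of coding length on a log y axis; points are means and vertical lines the range over the 12 libraries, colored by class. *Rpl41* stands at 11590, the median member at 763 and *Rpl13a* at 23.8.

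The paralogs of muscle and of other tissues came next. *Rpl3l*, the striated muscle paralog of *Rpl3*, had normalized counts of 408, 467 and 250 in WT PCs, of 296, 388 and 334 in those of the KO, 326, 438 and 365 in WT VMs and 404, 318 and 328 in KO VMs. Per kb of coding length it exceeded *Rpl3* in all 12 libraries, by 3.85-fold at the median and by at most 6.24-fold. The groups overlapped in every comparison, and the differences of *Rpl3l* were -0.13 (SE 0.288, on the log2 scale) for KO PC against WT PC, 0.03 (SE 0.243) for the same without WT PC replicate 2, and -0.11 (SE 0.166) for KO VM against WT VM. Both cell types of both genotypes held more of the muscle form, per coding length, than of the common one as counted here.

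The other paralogs lay below their parents, except for 1 pair. *Rpl36al* and *Rpl36a*, which encode nearly the same protein, were counted at about the same level, with a ratio of 0.958 at the median and 0.663 to 2.08 over the libraries. *Rps27l* was 3.68-fold, *Rpl22l1* 8.87-fold and *Rpl7l1* 15.4-fold lower per kb than *Rps27*, *Rpl22* and *Rpl7* at the median, and each was lower in all 12 libraries. The retrogene copy *Rps27rt* was 19.4-fold lower than *Rps27*. Reads shared by such near-identical copies can be lost or be split, so these ratios are uncertain.

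Loss of NCAM-1 in PCs was examined first. In KO PCs compared with WT PCs, 10 of the 83 members were lower and 0 higher at an unadjusted p under 0.05, against 3.26% of all 12093 genes tested in either direction and 2.7% lower. After Benjamini-Hochberg adjustment 0 members and 0.0% of all genes passed 0.05 by edgeR, and 0 members by DESeq2 or limma. Without the filter on low counts, 27 members were called and 5 passed the adjusted p. Shares of all genes called are given only for the edgeR fits with the filter, with all libraries compared or without WT PC replicate 2. Counts from other fits, here and below, show only how the calls of the members moved. The log2 fold changes of 77 members lay below 0, with a median of -0.51 where the median of all genes was -0.0006. The called genes were 4 of the large subunit, 5 of the small subunit and 1 of the stalk.

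Without WT PC replicate 2 most of this was gone. Then 2 of the 83 members were called, *Rplp0* lower and the paralog *Rpl7l1* higher, against 3.86% of all genes, and the median of the members was -0.05 with 49 members below 0. Omission of other libraries moved the count as well, to 36 without WT PC replicate 1, 4 without KO PC replicate 1, 1 without KO PC replicate 2 and 3 without KO PC replicate 3. No share of all genes is given beside these counts, so they cannot be read as particular to the members. Groups that did not overlap were seen for 7 members (8.43%), all lower in KO, beside 9.49% of all genes. Markers of other kinds moved as well. The Purkinje markers, of which 3 of 5 were lower in KO PCs, had summed levels of 779 to 2011 in the WT and 206 to 1239 in the KO, and the 4 erythroid markers, all lower, had 1.27 to 3487 and 0 to 15.5. Their part in the results was not tested, and in bulk samples fewer cells of a type and less RNA per cell cannot be told apart. With 3 libraries against 3, the exact two-sided permutation test of a single gene cannot go below 0.1.

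**Figure D3:**
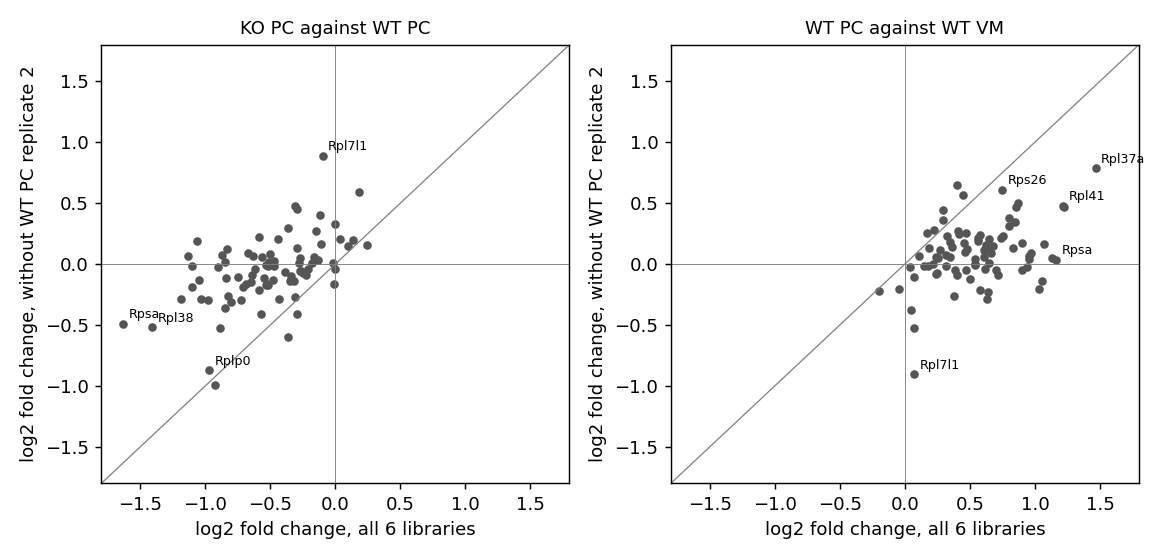
Log2 fold changes of the 83 members with all 6 libraries (x axis) and without WT PC replicate 2 (y axis), for KO PC against WT PC and for WT PC against WT VM; the diagonal marks equal values. The median of the members goes from -0.51 to -0.05 on the left and from 0.54 to 0.07 on the right, while *Rplp0* stays near the diagonal on the left.

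*Rplp0* was called both with and without that library, the 1 member of which this was true. It encodes the base of the stalk, the arm of the large subunit that recruits the translation factors, and is widely used as a reference gene in quantitative PCR. The gene starts at position 115559467 of chromosome 5, on the + strand of GRCm38. Its levels were 631, 899 and 804 normalized counts in PCs of WT hearts, 502, 358 and 334 in KO PCs, 584, 687 and 550 in WT VMs, and 514, 371 and 360 in KO VMs. All 6 KO libraries lay below all 6 WT libraries, whatever the cell type. As PCs and VMs may come from the same hearts, the 6 libraries of a genotype may not be independent.

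In PCs the log2 fold change of *Rplp0* was -0.97 (SE 0.253, unadjusted p = 0.00314, edgeR adjusted p = 0.995), and without WT PC replicate 2 it was -0.87 (SE 0.213, unadjusted p = 0.000996, edgeR adjusted p = 0.811). It was called at the unadjusted threshold after omission of each of the 6 libraries, with log2 fold changes from -1.15 to -0.87. In VMs, in which no library of the PCs takes part, the log2 fold change was -0.56 (SE 0.166, unadjusted p = 0.00387, edgeR adjusted p = 0.707), and from -0.74 to -0.44 after omission of each library, with an unadjusted p under the threshold each time. The hearts may be shared, so the VM result may not be independent of that in PCs. Over all alternatives the adjusted p ranged from 0.143 to 1 in PCs and from 0.192 to 1 in VMs. The effect of genotype in PCs minus that in VMs was -0.42 (SE 0.308, unadjusted p = 0.192, edgeR adjusted p = 0.999), and -0.31 (SE 0.274) without WT PC replicate 2.

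The other genes of the stalk were not called in either cell type. *Rplp1* had normalized counts of 931, 2590 and 1102 in WT PCs and of 1257, 970 and 770 in the KO, and *Rplp2* had 354, 795 and 359 against 529, 292 and 263. In both genes 1 KO library lay above 2 of the WT libraries. Their log2 fold changes were -0.62 (SE 0.368) and -0.47 (SE 0.378) with all libraries and -0.05 (SE 0.205) and -0.01 (SE 0.262) without WT PC replicate 2. In VMs they were 0.04 (SE 0.152) and -0.15 (SE 0.198).

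*Rpl38*, a large subunit gene known from studies of selective translation in mouse embryos, had 187, 763 and 222 normalized counts in WT PCs, whereas KO PCs had 176, 118 and 139. The groups did not overlap, but the WT value nearest to KO was only 187 against 176. Its log2 fold change of -1.41 (SE 0.493, unadjusted p = 0.0165, edgeR adjusted p = 0.995) became -0.52 (SE 0.248, unadjusted p = 0.0534) without WT PC replicate 2.

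The next genes by p-value also rested on that library. *Rpsa*, the laminin receptor gene whose product sits on the small subunit, had normalized counts of 302, 1200 and 196 in WT PCs and of 171, 146 and 217 in the KO, and its log2 fold change went from -1.63 to -0.49. *Rps27a*, which encodes a fusion of ubiquitin and a small subunit protein, had 384, 955 and 443 against 374, 317 and 288 and went from -0.85 to -0.36. *Rpl41* had 731, 2797 and 1056 against 876, 658 and 687 and went from -1.03 to -0.29. At an unadjusted p under 0.05, none of these 3 genes was called without WT PC replicate 2, with values of 0.081, 0.0967 and 0.18.

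**Figure D4:**
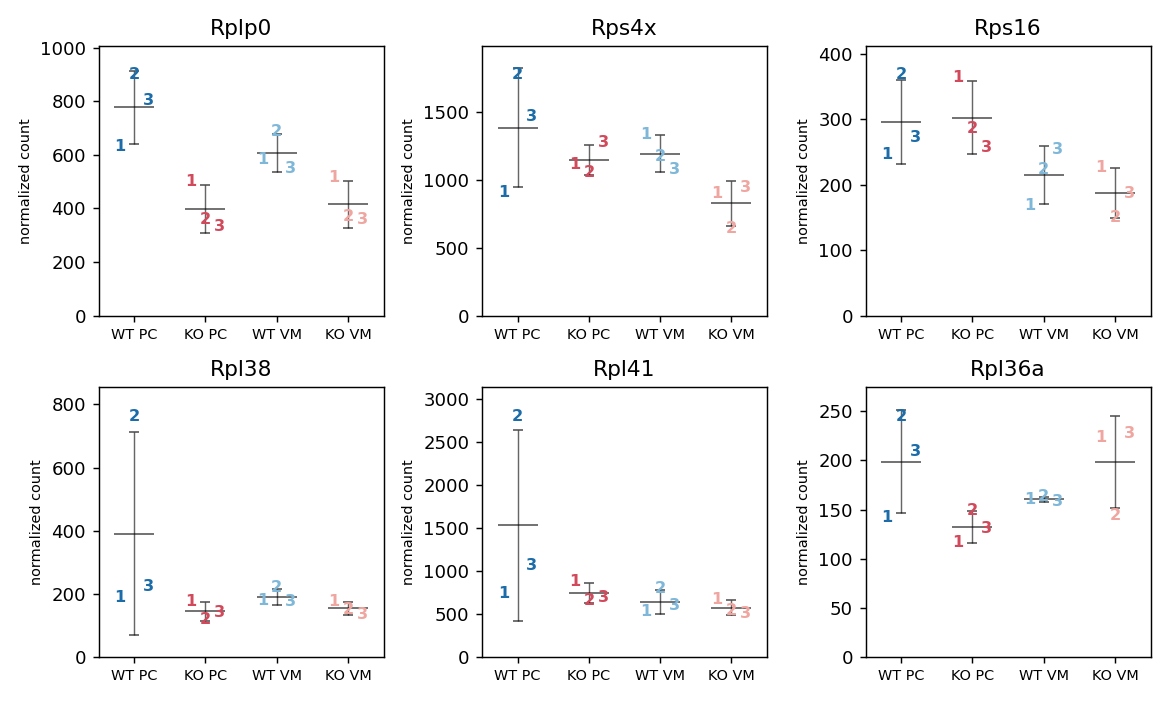
Normalized counts (y axis, from 0) of 6 members in the 4 groups (x axis); digits are the replicate numbers, and bars give the mean ± SD of 3 libraries. All KO values of *Rplp0* lie below all WT values, all KO PC values of *Rps16* lie above all its KO VM values, and WT PC replicate 2 sets the WT PC means of *Rpl38* and *Rpl41*.

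In VMs the members showed no common shift with genotype. At an unadjusted p under 0.05, 3 of 83 members were lower and 1 higher in KO VMs, against 5.14% of all 10780 genes; by edgeR 0 members and 0.0371% of all genes passed the adjusted p of 0.05, and 0 members by DESeq2 or limma. The median log2 fold change was 0.03, with 46 members above 0, and that of all genes was -0.02. Groups did not overlap for 5 members (6.02%), beside 9.62% of all genes. The count of calls was 8 without WT VM replicate 1 and 7 without KO VM replicate 1. It was 12 without KO VM replicate 2, of which 10 were higher in KO, and 2 without KO VM replicate 3. No share of all genes is given for these fits, so the counts cannot be read as particular to the members.

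Besides *Rplp0*, the gene with the smallest p was *Rps4x*, the X-linked gene of a small subunit protein. Its normalized counts were 1334, 1170 and 1071 in WT VMs and 896, 638 and 944 in KO VMs, without overlap. The log2 fold change was -0.53 (SE 0.158, unadjusted p = 0.00358, edgeR adjusted p = 0.707), and it was called after omission of each library, from -0.63 to -0.36. In PCs, with 908, 1771 and 1466 normalized counts in WT and 1112, 1053 and 1271 in KO, the groups overlapped and the log2 fold change was -0.26 (SE 0.265), or -0.06 (SE 0.210) without WT PC replicate 2.

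*Rpl30*, of the large subunit, had 416, 472 and 436 normalized counts in WT VMs and 747, 398 and 644 in KO VMs and changed by 0.43 (SE 0.190, unadjusted p = 0.0382, edgeR adjusted p = 0.929). The groups overlapped.

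The VM libraries also differed in markers of cells other than myocytes. The summed normalized counts of 6 endothelial markers were 345 to 670 in WT VMs and 93.5 to 420 in KO VMs, with the lowest in KO VM replicate 1, and those of 6 fibroblast markers were 239 to 423 and 71.7 to 350. The 5 mural cell markers, of which 2 were called lower in KO VMs, summed to 507 to 1055 and 268 to 739, and the 6 leukocyte markers to 57.1 to 154 and 10.9 to 82.1. The part of these markers in the calls was not tested.

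PCs and VMs of WT hearts were compared next. Here 6 of 83 members were higher and 0 lower in PCs, against 6.31% of all 12035 genes in either direction and 5.09% higher, and 0 members and 0.108% of all genes passed edgeR's adjusted p of 0.05. By DESeq2 or limma 0 members passed it, and without the filter 7 did, with 35 called. As no share of all genes is given without the filter, these counts cannot be read as particular to the members. The log2 fold changes of 81 members were above 0, with a median of 0.54 where all genes had -0.0032. Groups did not overlap for 9 members (10.8%), all higher in PCs, beside 13.7% of all genes. This comparison shares the WT PC libraries with KO PC against WT PC, so WT PC replicate 2 enters both.

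Without it, 8 members were called, 6 higher and 2 lower, against 10.4% of all genes, and the median was 0.07 with 54 members above 0. The count was 38 without WT PC replicate 1, 17 without WT PC replicate 3, 2 without WT VM replicate 1 and 1 without WT VM replicate 3. In DESeq2's Wald test with all 6 libraries, 13 members were called at the unadjusted threshold. Shares of all genes are not given for this test or for the omission of libraries other than WT PC replicate 2.

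Of the genes with the smallest p, *Rpl37a* of the large subunit had 253, 847 and 319 normalized counts in WT PCs and 208, 182 and 106 in WT VMs. Its log2 fold change was 1.47 (SE 0.460, unadjusted p = 0.0107, edgeR adjusted p = 0.609) and 0.78 (unadjusted p = 0.00876) without WT PC replicate 2. *Rps26* of the small subunit had 302, 424 and 319 in WT PCs and 238, 209 and 160 in WT VMs, with 0.75 (SE 0.254, unadjusted p = 0.0158, edgeR adjusted p = 0.676) and 0.61 (unadjusted p = 0.0106) without that library. In both genes every WT PC library exceeded every WT VM library. *Rpl41* and *Rpl6*, the others called with and without it, changed by 0.48 (unadjusted p = 0.0432) and 0.37 (unadjusted p = 0.0488) in its absence.

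In KO hearts, where that library plays no part, 6 members were higher and 1 lower in PCs than in VMs, against 9.72% of all 10887 genes. The median log2 fold change was 0.01 in the members and in all genes, and groups did not overlap for 6 members (7.23%) beside 15.6% of all genes. The count of calls was 15 without KO VM replicate 1 and 4 without KO VM replicate 3, with no share of all genes given. By edgeR's adjusted p, 1 member, which is not reported here, and 0.863% of all genes passed.

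The small subunit genes *Rps16*, *Rps4x* and *Rps6* were higher in KO PCs without overlap. *Rps16* had 364, 285 and 257 normalized counts in KO PCs and 226, 150.0 and 186 in KO VMs (log2 fold change 0.68, SE 0.202, unadjusted p = 0.00382, edgeR adjusted p = 0.157). *Rps6*, whose product is the phosphorylated target of the S6 kinases, had 281, 180 and 175 against 147, 136 and 135 (0.59, SE 0.218, unadjusted p = 0.0159, edgeR adjusted p = 0.326). *Rps4x* had 1112, 1053 and 1271 against 896, 638 and 944 (0.47, SE 0.161, unadjusted p = 0.00945, edgeR adjusted p = 0.247). Of the 7 called members 5 belonged to the small subunit, or 16.1% of its 31 tested genes. The share was 4.76% of the 42 large subunit genes and 9.72% of all genes. In WT hearts 2 small and 4 large subunit genes were called.

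*Rpl36a*, an X-linked large subunit gene, was the member lower in KO PCs. It had 116, 149 and 131 normalized counts in KO PCs and 223, 144 and 227 in KO VMs, with a slight overlap (log2 fold change -0.58, SE 0.220, unadjusted p = 0.0179, edgeR adjusted p = 0.342). In WT hearts the values were 142, 245 and 209 in PCs and 160, 163 and 158 in VMs.

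Markers of cells other than myocytes were also higher in PCs. The summed normalized counts of the fibroblast markers were 721 to 1842 in PCs and 71.7 to 423 in VMs, those of the endothelial markers 709 to 2375 and 93.5 to 670, those of the 6 leukocyte markers 258 to 664 and 10.9 to 154, and those of the mural cell markers 1050 to 2584 and 268 to 1055. The 6 cardiomyocyte markers summed to 353600 to 641800 in PCs and 535600 to 694800 in VMs. The part of these cells in the PC against VM results was not tested.

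The genotype effects in PCs and VMs were compared directly over all 12 libraries. The difference passed an unadjusted p of 0.05 for 4 members, all with a more negative effect in PCs, against 2.95% of all 11533 genes; 0 members and 0.0% of all genes passed edgeR's adjusted p. By DESeq2 or limma 0 members passed it, and without the filter 1 did, with 23 called. The median difference was -0.54 in the members and 0.02 in all genes. Without WT PC replicate 2 the median was -0.10 and 2 members were called, against 3.52% of all genes. The count of calls was 30 without WT PC replicate 1, 10 without WT PC replicate 3 and 0 without KO VM replicate 1. It was 1 or 2 without KO PC replicates 2 or 3, any WT VM replicate or KO VM replicate 3. No share of all genes is given for these counts or for the 23. *Rpl36a* was called both ways, with a difference of -0.88 (SE 0.359, unadjusted p = 0.0266, edgeR adjusted p = 0.999) and of -0.71 (unadjusted p = 0.0373) without that library.

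Over both cell types, a comparison added after the data were seen, 9 members were lower and 0 higher in KO, against 4.75% of all genes, and without WT PC replicate 2 there were 6 lower and 1 higher, against 6.08%. *Rplp0* had a log2 fold change of -0.76 (SE 0.155, unadjusted p = 0.00017, edgeR adjusted p = 0.199) and of -0.70 (SE 0.137, unadjusted p = 5.29e-05, edgeR adjusted p = 0.0512) without it, and its adjusted p ranged from 0.00622 to 0.925 over the alternatives. By edgeR's adjusted p 0 members and 0.026% of all genes passed, and by DESeq2's 1 member passed. PCs and VMs may come from the same hearts, which these p-values do not take into account. The count of calls was 29 without WT PC replicate 1 and 16 without WT PC replicate 3. It was 4 without KO PC replicate 2, WT VM replicate 2 or KO VM replicate 2, with no share of all genes given.

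Over both genotypes, a contrast added in the same way, 15 members were higher in PCs and 0 lower, against 11.4% of all genes, with 9 higher and 1 lower without WT PC replicate 2, against 14.8%. By edgeR's adjusted p 0 members and 1.48% of all genes passed with all libraries, and by DESeq2's 1 member. The count of calls was 33 without WT PC replicate 1 and 6 without KO PC replicate 1 or WT VM replicate 3. It was 7 without KO VM replicate 2 or KO VM replicate 3, with no share of all genes given.

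WT PC replicate 2 was described further since so many values rest on it. Its normalized counts, divided by the mean of WT PC replicates 1 and 3, had a median of 2.18 over the 83 members, with 77 members above 1 and 20 above 3. The ratio was 2.79 at the median in the 29 members with a coding length under 400 bases, 2.06 in the 30 from 400 to 600 and 1.52 in the 24 longer ones. The largest were 5.68 for *Rps19bp1*, 5.12 for *Rps12* and 4.81 for *Rpsa*, whereas *Rplp0* had 1.25 and *Rps6* 0.854.

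Other genes with short transcripts were higher in this library too. In protein-coding genes other than the members, the median ratio was 2.33 for transcripts under 500 bases, 1.82 from 500 to 700, 1.31 from 700 to 1000 and 0.674 from 4000 bases on. The members in the first 3 of these ranges had 2.73, 2.34 and 1.81. The median of the members thus lay above that of other genes in each of these ranges.

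**Figure D5:**
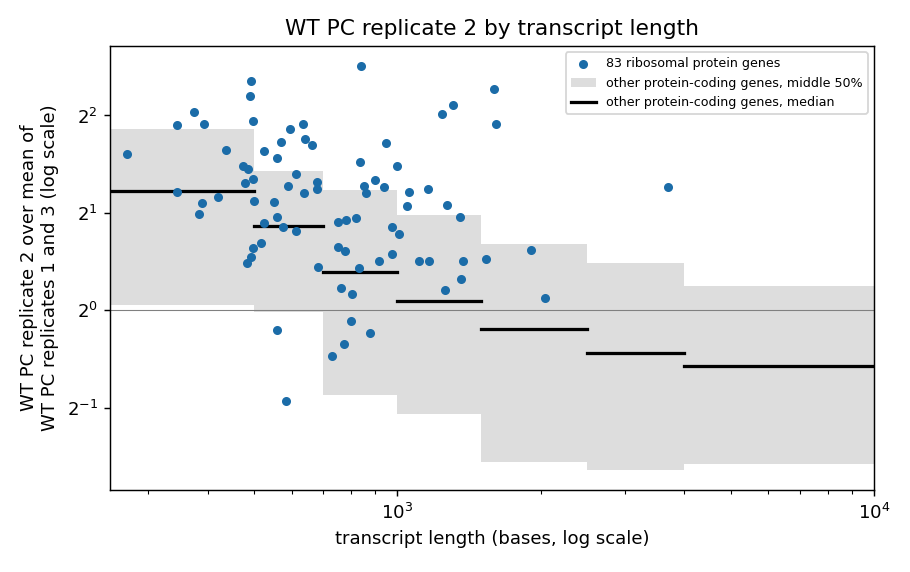
The y axis gives the normalized count in WT PC replicate 2 over the mean of WT PC replicates 1 and 3 (log scale), the x axis the transcript length (log scale). Points are the 83 members, black lines medians and gray areas the middle 50% of other protein-coding genes in each range of length; the medians go from 2.33 under 500 bases to 0.674 from 4000 bases on.

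The same library held the highest summed count of erythroid markers (3487, at most 608 elsewhere), of leukocyte markers (664, at most 301) and of fibroblast markers (1842, at most 1157). Endothelial and mural cell markers were not highest in WT PC replicate 2, with 1627 and 1255 against 2375 and 2584 in KO PC replicate 1. The summed count of cardiomyocyte markers in WT PC replicate 2 was the lowest (353600, at least 445800 elsewhere). Gene by gene, all 4 erythroid markers were highest in this library, but only 2 of the 6 leukocyte, 2 of the 6 fibroblast and 2 of the 6 cardiomyocyte markers. The median centred level of the cardiomyocyte markers was -0.12 there and -0.13 in WT VM replicate 3. The hemoglobin genes *Hba-a1* and *Hba-a2* were at 0 in all KO PC and all KO VM libraries. Low erythroid sums were not limited to KO. They were 1.27 in WT PC replicate 3 and 3.26 in WT VM replicate 3, against 15.5 in KO PC replicate 3. What part length, alignment or other cells have in the level of the members was not tested. The share of mitochondrial ribosomal protein genes, whose products form a separate ribosome, was 0.722% of counts outside the mitochondrial genome in WT PC replicate 2 and 0.428% to 0.501% in the others.

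Other genes of the translation apparatus were taken from fixed lists. Of the ribosomal proteins with other names, *Rack1* and *Fau* were tested. *Fau*, a fusion of a ubiquitin-like and a small subunit protein, was lower in KO PCs (-1.17, SE 0.516, unadjusted p = 0.0462, edgeR adjusted p = 0.995), but not called without WT PC replicate 2 (-0.30, unadjusted p = 0.329). Of 76 mitochondrial ribosomal protein genes tested, 1 was lower in KO PCs and 0 in KO VMs, with medians of -0.30 and -0.04. The median of the former was 0.02 without WT PC replicate 2.

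Of 19 genes for elongation and other translation factors whose mRNAs carry the same kind of pyrimidine start, 1 was lower in KO PCs, and 1 was lower and 1 higher in KO VMs. The gene lower in both was *Eef1a1*, the common form of elongation factor 1A. It had normalized counts of 801, 929 and 1081 in WT PCs, of 804, 419 and 627 in those of the KO, 315, 275 and 353 in WT VMs and 215, 246 and 265 in KO VMs. Its log2 fold changes were -0.61 (SE 0.273, unadjusted p = 0.0492, edgeR adjusted p = 0.995) in PCs and -0.38 (SE 0.167, unadjusted p = 0.0348, edgeR adjusted p = 0.929) in VMs, and without WT PC replicate 2 it was -0.63 in PCs. *Eef1a2*, the muscle and nerve form, was higher in KO VMs by 0.39 (SE 0.153, unadjusted p = 0.0204, edgeR adjusted p = 0.929).

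*Eef1a1* also separated the cell types. In PCs it was higher by 1.54 in WT (SE 0.227, edgeR adjusted p = 0.0611) and by 1.34 in KO (SE 0.208, edgeR adjusted p = 0.00739), and its PC and VM values did not overlap. The median of the 19 genes was 0.16 in WT (-0.07 without WT PC replicate 2) and 0.01 in KO for that comparison. The non-myocyte markers given above moved in the same direction, and their part was not tested.

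The 21 genes of initiation and the genes of ribosome biogenesis, of which 30 of 31 were tested in PCs and 29 in VMs, had 0 calls by edgeR's unadjusted p between genotypes in PCs and in VMs, with medians between -0.10 and 0.04. Of 15 genes of the mTOR and LARP pathway that controls the translation of ribosomal protein mRNAs, 2 were higher and 1 lower in KO VMs and 0 were called in KO PCs. *Mtor* itself changed by 0.44 (SE 0.153, unadjusted p = 0.00989, edgeR adjusted p = 0.929), *Sesn1*, an inhibitor of the pathway, by 0.35 (SE 0.147, unadjusted p = 0.0305), and *Rheb*, an activator, by -0.36 (SE 0.166, unadjusted p = 0.0458) in KO VMs.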

How the data were processed

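Raw read counts per gene were deposited for 12 libraries of sorted PCs and VMs. The authors made them from amplified low-input RNA by STAR alignment to mm10 and HTSeq counting, which leaves out read pairs with several matches; the strand setting is not given in the sources used here. In each library 79.0% to 91.3% of counts were mitochondrial, which limits the depth left for other genes. Symbols, lengths and exon overlaps came from GENCODE M21, in which 382 gene identifiers of the files were absent, and promoter sequences from RefSeq (GRCm38.p6). Members and gene lists were chosen with earlier results of these data known.

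From the counts, log2 fold changes (KO over WT, PC over VM) were estimated with edgeR 4.0.16 in R 4.3.3 (TMM scaling, quasi-likelihood test, two-sided, mean normalized count above 5 in the libraries compared) and adjusted by Benjamini-Hochberg over all genes tested. Each comparison used its own 6 libraries, and the difference of genotype effects and the contrasts over both cell types or genotypes used all 12. Called means an unadjusted p under 0.05, the kind of rule the study used. Named members were the 5 with the smallest p per comparison, the 5 highest and 5 lowest per kb, the paralogs with their parents, the stalk genes and *Rpsa*; other members named were picked after their values were seen. Some genes that this rule picks are not reported here. Alternatives were DESeq2 1.42.0, its size factors, limma 3.58.1 with voom weights, no filter, the replicate number as a block, a correction for length and GC, no mitochondrial genes, pseudogene counts added, 1 fit of all 12 libraries, and omission of each library. The fit was tested on simulated data. The source names number the WT libraries otherwise than their titles, and titles were used.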

Additional observations from a re-analysis of the deposited data

Results flagged for a closer look

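The genotype effect differed between PCs and VMs for 4 of 83 members (4.82%) by edgeR's interaction test at an unadjusted p under 0.05. The share of all 11533 genes was 2.95%. All 4 members had the more negative effect in PCs and an adjusted p of 0.999. *Rpl36a* differed by -0.88 on the log2 scale (unadjusted p = 0.0266, edgeR adjusted p = 0.999) and by -0.71 (unadjusted p = 0.0373, adjusted p = 1) without WT PC replicate 2. *Rpsa* differed by -1.68, *Rpl6* by -0.82 and *Rps21* by -1.26 (unadjusted p = 0.036, 0.0409 and 0.0465, edgeR adjusted p = 0.999 for each). Without WT PC replicate 2 these became -0.52, -0.38 and -0.34, with unadjusted p-values of 0.235, 0.121 and 0.282 and an edgeR adjusted p of 1 for each.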

How the results depend on the processing

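The count of members called depended on single libraries and on the filter. Shares of all genes called in these fits are not given, so the counts cannot be read as particular to the members. In KO PCs against WT PCs the 10 calls became 27 without the filter, 3 with voom weights, 22 in 1 fit of all 12 libraries, and 1 to 36 after omission of 1 library. In KO VMs against WT VMs the 4 calls became 2 in the fit of all 12 libraries and 2 to 12 after omission. In WT PCs against WT VMs the 6 calls became 13 by DESeq2, 35 without the filter, 26 in the fit of all 12 libraries and 1 to 38 after omission. In KO PCs against KO VMs the 7 calls became 4 in the fit of all 12 libraries and 4 to 15 after omission. The 4 differences of genotype effects became 23 without the filter, 2 with voom weights and 0 to 30 after omission. Of the contrasts chosen after seeing the data, the 9 calls of KO against WT became 22 without the filter and 4 to 29 after omission, and the 15 of PC against VM became 34 and 6 to 33.

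Deviations from the group means over 8352 genes had r of 0.0814 to 0.205 between WT PCs and WT VMs of the same replicate number and of -0.167 to 0.0216 between different numbers, a hint that WT libraries of 1 number deviate together. Between KO PCs and KO VMs r was -0.0158 to 0.12 for the same number and -0.127 to 0.0905 for different ones. As not every pair exceeded 0.1 and the labels give no shared heart, the numbers were not taken as pairs. With the replicate block the counts were 5, 1 and 5 for KO PC against WT PC, the difference of effects and KO against WT over both cell types. The block with the length and GC correction gave 5 for KO PC against WT PC, 12 for KO PC against KO VM and 1 for the difference of effects.

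The median of the members moved to -0.05 in KO PC against WT PC without WT PC replicate 2, to 0.16 with voom weights and 0.07 without that library in WT PC against WT VM, and to -0.14 and -0.10 in the difference of effects. Without WT PC replicate 2 the members above 0 in KO PC against WT PC went from 6 to 34. Among values called in 1 of the fits, directions reversed for *Rpl7l1* in KO PC against WT PC (0.96 with voom weights, 0.89 without WT PC replicate 2) and in WT PC against WT VM (-0.94 and -0.91, with -0.91 to 0.50 after omission of each library), and for *Rpl39* in the latter without WT PC replicate 2 (-0.52, with -0.52 to 0.37 after omission of each). The cause was not tested. Of 3861 alternative values for single members, 3535 stayed on their side of the threshold without a called reversal, 169 became weaker and 152 stronger. *Rpl10l*, *Rpl24* and *Rpl39l* did not pass the filter on low counts in any comparison.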
